A study of Homo sapiens with 6 samples.

Results

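The genes that fold, check and discard proteins in the endoplasmic reticulum (ER), and those that sense when this work falls behind, were followed in HAP1 cells lacking DEGS1. HAP1 is an established, near-haploid human line that was derived from a chronic myeloid leukaemia and grows attached to the dish. DEGS1 is the desaturase that turns dihydroceramide into ceramide, an enzyme that itself sits in the ER membrane. The genes were taken by name, though with earlier results of these data known. They are 36 symbols that make up the ER stress sensors and transcription factors, the ER chaperones, the disulfide isomerases and the machinery of ER-associated degradation. All 36 were among the 35238 symbols of the count table, and all 36 were among the 16954 genes abundant enough to be tested. Members were present in every library of both genotypes, with 40 to 48412 counts each, so none entered the test through 1 genotype alone.

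RNA was sequenced from 6 libraries, 3 of HAP1 DEGS1 KO cells and 3 of HAP1 wildtype (WT) cells, all untreated. Both genotypes were kept in medium with 5% serum, passaged 3 times a week and collected 24 h after a passage. The labels say neither how many knockout clones there were nor whether the replicates were separate cultures. A p-value here therefore speaks only of the scatter among these 6 libraries, which may be technical. Fewer cells of a type and less RNA per cell cannot be told apart in such bulk samples.

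Proteins bound for the cell surface, the secretory pathway or the outside are threaded into the ER, where chaperones, sugar-binding lectins and disulfide isomerases help them to fold. When unfolded protein builds up, 3 sensors in the ER membrane respond. ERN1, also called IRE1, splices the XBP1 mRNA, ATF6 is cut in the Golgi into a free transcription factor, and the kinase PERK slows translation. XBP1 and the ATF6 fragment then raise the mRNAs of chaperones and of ER-associated degradation, the route that carries misfolded proteins back to the cytosol and the proteasome. The response is known best from cells that secrete heavily, and membrane lipid composition is a known input to the ERN1 and ATF6 sensors. A count per gene reports the amount of mRNA, and it shows neither the splicing of XBP1, nor the cleavage of ATF6, nor any protein.

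The promoters of these genes are shown first, because several are known to carry a shared element of the response. RefSeq's GRCh38.p14 promoters, 250 bases before to 50 bases after each start, held a window for 32 of the 36 genes. PDIA3, DERL1, DERL3 and SEC24D had none in the table. Both strands were searched for the ER stress response element, spelled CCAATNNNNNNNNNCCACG, and for the ER stress response element II, spelled ATTGGNCCACG, which shares the letters CCACG with it. The first stood in 8 of 32 members (25.0%) and in 25 of all 27305 genes with a window (0.0916%), the 8 members among them. The second stood in 3 of 32 members (9.38%) and in 19 of all 27305 genes (0.0696%), and no member held both. These matches describe letters only. The 250 bases upstream of HSPA5 and of HSP90B1, the ER members of the HSP70 and HSP90 chaperone families, are printed 5′ to 3′ on the gene's strand, with the ER stress response element in capitals.
HSPA5, chr9:125241344-125241593, minus strand: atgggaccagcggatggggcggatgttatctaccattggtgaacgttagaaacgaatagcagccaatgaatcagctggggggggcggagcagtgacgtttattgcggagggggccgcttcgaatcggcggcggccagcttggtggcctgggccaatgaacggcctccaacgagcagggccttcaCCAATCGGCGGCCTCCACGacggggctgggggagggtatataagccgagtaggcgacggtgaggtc
HSP90B1, chr12:103930160-103930409, plus strand: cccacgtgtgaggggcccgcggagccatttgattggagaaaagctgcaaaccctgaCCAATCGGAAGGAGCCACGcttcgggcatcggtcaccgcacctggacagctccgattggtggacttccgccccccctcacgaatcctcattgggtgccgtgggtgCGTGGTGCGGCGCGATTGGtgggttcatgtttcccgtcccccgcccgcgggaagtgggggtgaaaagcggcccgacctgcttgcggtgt

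HSPA5 held 1 exact match to this spelling, and HSP90B1 held 2 in opposite orientations. Near matches were not searched for. The elements of CALR, CANX, PDIA6, XBP1, CRELD2 and ERO1B are printed with 8 bases on each side, or fewer at the window's edge, again on the gene's strand. Capitals mark the element, which starts with CGTGG where it lies in reverse. They are set out because these promoters carry the same letters while the genes' differences, given further on, had different sizes and signs. None of these differences was called over all libraries.
CALR, chr19:12938376-12938410, plus strand: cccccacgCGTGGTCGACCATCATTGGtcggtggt
CANX, chr5:179698770-179698804, plus strand: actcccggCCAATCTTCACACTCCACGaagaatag
PDIA6, chr2:10812845-10812879, minus strand: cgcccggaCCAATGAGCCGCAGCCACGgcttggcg
XBP1, chr22:28800595-28800629, minus strand: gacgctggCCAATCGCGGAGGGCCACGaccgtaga
CRELD2, chr22:49918546-49918580, plus strand: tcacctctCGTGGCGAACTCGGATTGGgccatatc
ERO1B, chr1:236282175-236282208, minus strand: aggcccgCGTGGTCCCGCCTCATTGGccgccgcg

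The shorter element II, in capitals, stood in the promoters of HYOU1 (2 sites), HERPUD1 and SDF2L1, a grouping of a chaperone, a degradation factor and a BiP partner.
HYOU1, chr11:119057372-119057398, minus strand: ccccgtgaCGTGGTCCAATcccaggcc
HYOU1, chr11:119057266-119057292, minus strand: gcctgggaCGTGGTCCAATgagtacgc
HERPUD1, chr16:56932017-56932043, plus strand: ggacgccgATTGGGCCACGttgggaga
SDF2L1, chr22:21642106-21642132, plus strand: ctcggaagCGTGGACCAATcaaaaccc

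Levels are given as CPM, counts brought to a common sequencing depth. DEGS1 stood at 9.49, 6.88 and 10.4 CPM in the DEGS1 KO libraries (replicates 1, 2 and 3, the order used throughout) and at 105, 123 and 95.5 CPM in the WT libraries. Library totals ran from 19389644 to 27659835 counts in DEGS1 KO and from 17322756 to 28988522 in WT. WT replicate 2, the deepest library, stood apart from the other WT libraries. Its counts differed from those of WT replicates 1 and 3 by a chi-square of 33.7 and 51.5 for each degree of freedom, while those 2 differed from each other by 12.6. Without it the fit called 3825 of 17305 genes, against 756 of 16954 with it, so calls that rest on this library are given both ways. DEGS1 KO replicate 1 differed from the other libraries of its genotype by 30.1 and 23.1 for each degree of freedom, where those differed from each other by 14.2, and without it 424 genes were called. Of 9 blood cell markers, 7 were under 1 CPM in every library and 3 were at zero, and their summed level was 4.19 to 5.18 CPM in DEGS1 KO and 2.75 to 6.37 CPM in WT. Of 6 secretory cell markers, 5 were under 1 CPM in every library, with sums of 1.26 to 2.00 CPM in DEGS1 KO and 0.780 to 2.20 CPM in WT. The 6 fibroblast markers summed to 9.60 to 11.7 CPM in DEGS1 KO and 6.17 to 11.1 CPM in WT, and the 5 epithelial markers to 68.8 to 102 CPM in DEGS1 KO and 67.7 to 73.9 CPM in WT.

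None of the members was called: 0 of 36 passed edgeR's quasi-likelihood test at a Benjamini-Hochberg adjusted p under 0.05, where 4.46% of all tested genes did (1.51% higher and 2.95% lower in DEGS1 KO). DESeq2 and limma voom also called 0 members. At an unadjusted p under 0.05 there were 4 members (11.1%), namely DNAJC3, CREB3, PDIA3 and DERL3, against 16.5% of all tested genes. Log2 differences, always DEGS1 KO over WT, ran from -0.62 for DERL3 to 0.37 for PDIA3. Their median was 0.03 beside -0.02 over all tested genes, and their median size was 0.15 beside 0.19. The differences were also bounded. The 95% interval lay within a 2-fold change either way for 35 of 36 members (97.2%, against 73.7% of all tested genes) and within 1.5-fold for 27 (75.0%, against 48.7%). These shares were not compared at equal abundance, and the median SE was 0.13 for members and 0.16 over all tested genes.

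**Figure D1:**
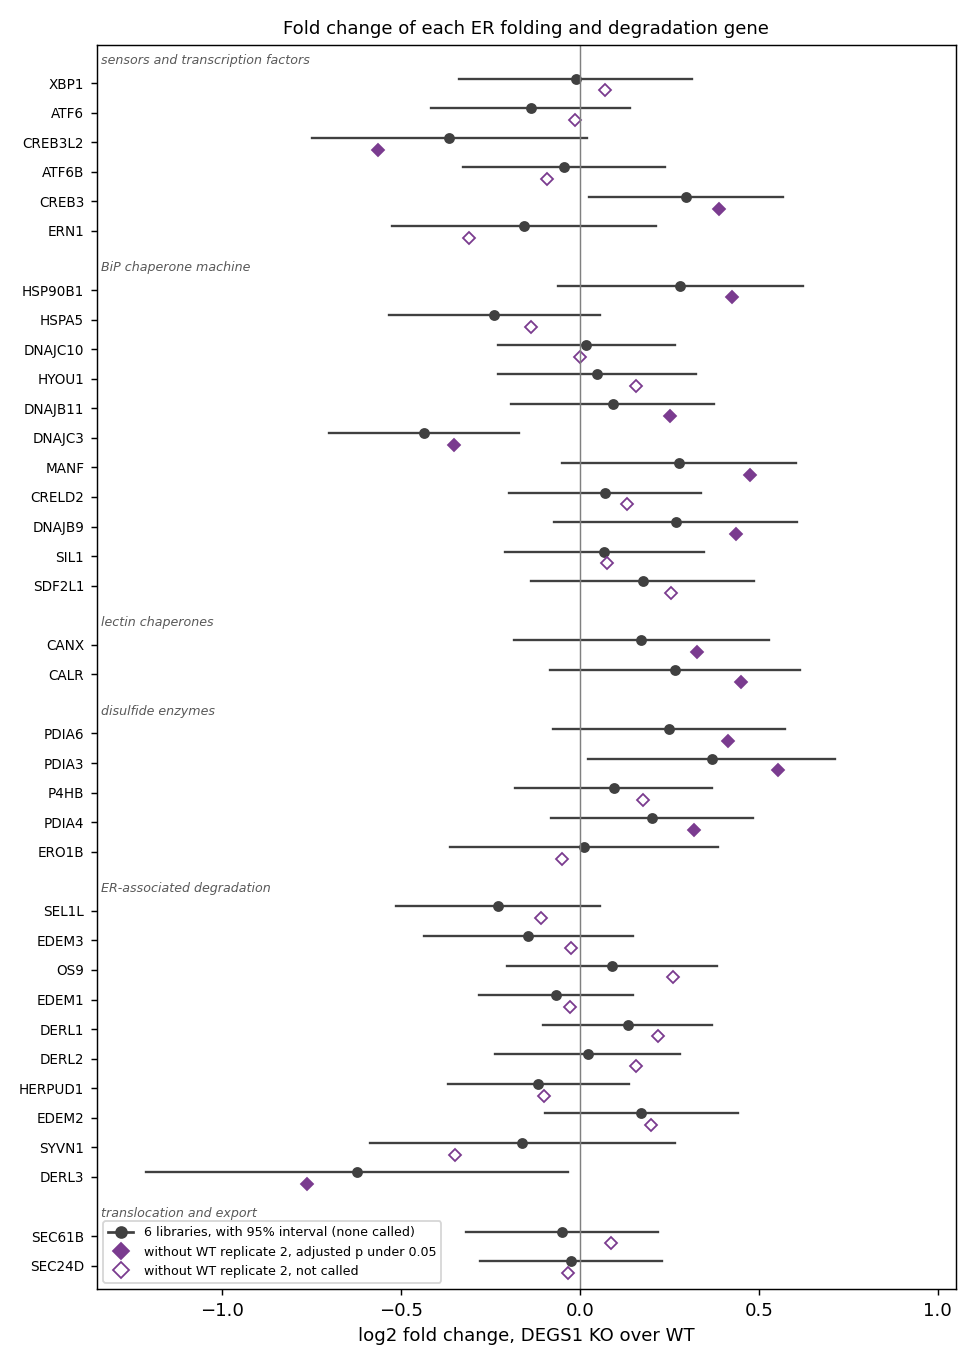
Log2 difference of each of the 36 genes, DEGS1 KO over WT, from all 6 libraries (3 per genotype), with 95% intervals, grouped by role. Diamonds show the value without WT replicate 2, filled where it was called. The values from all libraries run from -0.62 to 0.37, and 0 of 36 passed the test.

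The genotypes did not overlap for 4 of the 36 members, where 20.8% of all tested genes had no overlap. CREB3 and EDEM2 were higher in every DEGS1 KO library than in any WT library, as were 9.24% of all genes, and DNAJC3 and DERL3 were lower, as were 11.6%. A further 18 members (50.0%) were kept from separating only by WT replicate 2, of which 15 would lie above and 3 below WT. The same held for 5899 of the 16954 tested genes (34.8%), of which 2919 would lie above and 2980 below WT. Groups of 3 and 2 libraries separate more easily than groups of 3 and 3. No other left-out library was counted in this way. That library was the highest WT library for 26 of 36 members (72.2%, against 43.1% of all genes). Summed over the members, the level was 7037, 7324 and 7233 CPM in DEGS1 KO, against 6021, 7545 and 5901 CPM in WT. The DEGS1 KO libraries lay close together, WT replicates 1 and 3 lay below them, and WT replicate 2 lay above.

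Without WT replicate 2, 13 of the 36 members were called (36.1%), beside 22.1% of all tested genes. Of these, 10 were higher in DEGS1 KO (10.6% of all genes were) and 3 were lower (11.5% of all genes were). Like the interval shares, these shares were not compared at equal abundance. With a trend in transcript length and GC content removed as well, 12 were called, beside 22.0% of all genes, and 10 of the 12 were among the 13. With replicate 2 of both genotypes left out, 15 were called, the 13 among them, beside 32.2% of all genes. Both of these last fits were chosen after seeing the data. Leaving out any other single library called 0 members. The fit without WT replicate 2 keeps WT replicates 1 and 3, whose counts differed least within that genotype. How far this smaller scatter lowered the p-values was not tested. WT replicate 2 also had the highest share of mitochondrial counts, 0.742%, beside 0.596% to 0.689% in DEGS1 KO and 0.704% and 0.714% in the other WT libraries, and the part of this in the calls was not tested.

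**Figure D2:**
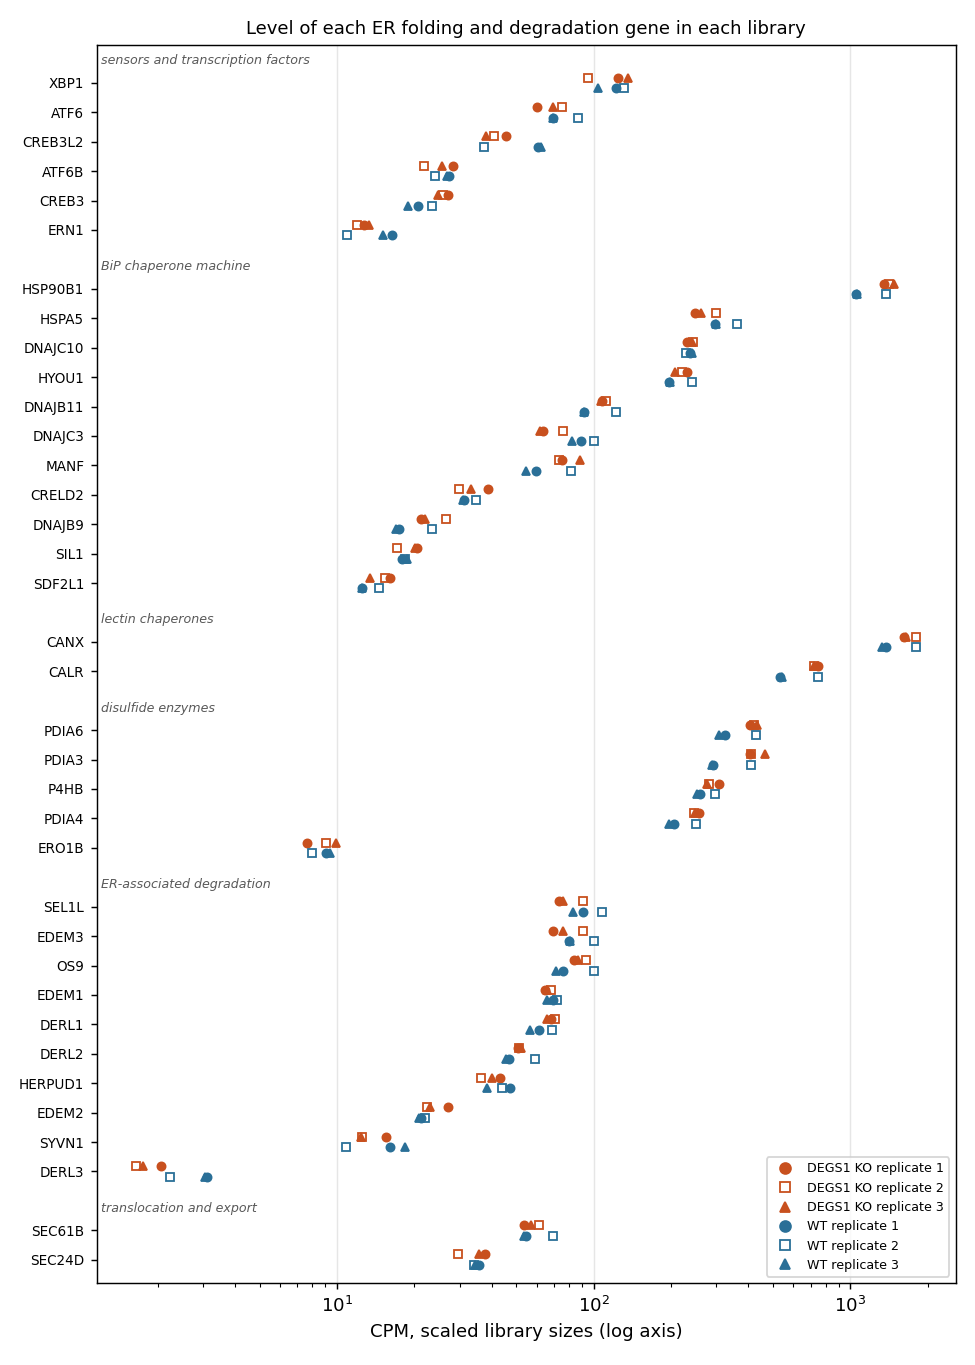
CPM of each of the 36 genes, on a log axis, in the 3 DEGS1 KO libraries (upper row of each gene) and the 3 WT libraries (lower row), with a marker shape for each replicate and genes grouped by role. WT replicate 2, an open square, is the highest WT point for 26 of 36 genes.

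The sensors and transcription factors stand first in the pathway, and 5 of the 6 had a negative difference, with a median log2 of -0.09. XBP1, the factor whose mRNA ERN1 splices, stood at 124, 94.6 and 136 CPM in DEGS1 KO and at 122, 131 and 104 CPM in WT. The genotypes overlapped fully. XBP1 had a log2 difference of -0.01 (SE 0.15), with an edgeR adjusted p of 0.977, and the 95% interval of the fold ran from 0.792 to 1.24. DEGS1 KO replicate 2 had the lowest XBP1 of the 6 libraries, while the same library had the highest HSPA5 of its genotype. XBP1 lies on chromosome 22. The median gene there, relative to each gene's mean, was also low in that library, at -0.19 beside 0.05 and -0.01 in DEGS1 KO replicates 1 and 3. ERN1 itself, the kinase and RNase that splices XBP1, was scarcer, at 12.8, 12.0 and 13.3 CPM in DEGS1 KO and 16.3, 10.9 and 15.2 CPM in WT. Its spread in WT covered all DEGS1 KO values, with a log2 difference of -0.16 (SE 0.17), or -0.31 without WT replicate 2, uncalled both ways. Per kilobase of transcript, ERN1 averaged 1.61 CPM in DEGS1 KO and 1.79 CPM in WT, and XBP1 averaged 54.3 and 54.8 CPM in the same order.

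ATF6, the sensor that becomes a transcription factor on cleavage, stood at 60.3, 75.4 and 69.5 CPM in DEGS1 KO, against 69.2, 87.0 and 69.5 CPM in WT. ATF6 had a log2 difference of -0.14 (SE 0.13), and that of its relative ATF6B was -0.04 (SE 0.13). Neither came near the threshold, with edgeR adjusted p-values of 0.637 and 0.890. The difference of ATF6 was -0.01 without WT replicate 2, and that of ATF6B was -0.09.

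CREB3 and CREB3L2 belong to the same class of membrane-bound factors that are freed by cleavage, and their differences had opposite signs. CREB3 stood at 26.9, 25.9 and 24.8 CPM in DEGS1 KO, above its 20.7, 23.5 and 18.9 CPM in WT. Each DEGS1 KO library exceeded each WT library, the log2 difference was 0.30 (SE 0.12), and the edgeR adjusted p was 0.255. Exons of CREB3 overlap those of TLN1 and GBA2 on the other strand, with 211 and 66.2 CPM on average, and whether the counting used strand is not given in the sources used here. CREB3L2, linked to the secretory load of cartilage-forming cells, had 45.5, 40.8 and 38.0 CPM in DEGS1 KO and 60.7, 37.4 and 62.1 CPM in WT. Here WT replicate 2 was the lowest of all 6 libraries, and WT replicates 1 and 3 lay above every DEGS1 KO library. The log2 difference was -0.36 (SE 0.17, edgeR adjusted p = 0.330) over all libraries and -0.56 (adjusted p = 0.002) without WT replicate 2. For CREB3 the value without that library was 0.39 (adjusted p = 0.0307).

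The chaperone machine built around BiP, the product of HSPA5, had 11 members, 9 with a positive and 2 with a negative difference, and a median log2 of 0.07. HSPA5 is the ER's HSP70 and the mRNA most often read as a gauge of ER stress. It stood at 249, 299 and 262 CPM in DEGS1 KO and at 296, 360 and 300 CPM in WT. The DEGS1 KO mean of 270.0 ± 26.1 CPM was below the WT mean of 319 ± 35.98 CPM (SD, n = 3 each), and DEGS1 KO replicate 2 overlapped WT. On the log2 scale HSPA5 differed by -0.24 (SE 0.14, edgeR adjusted p = 0.417), with a 95% interval of the fold from 0.690 to 1.04. It stayed negative and uncalled in all 19 other ways of fitting, between -0.31 and -0.14. In the edgeR fit of all 6 libraries, an increase of HSPA5 above 1.04-fold was outside the interval. That interval speaks only of the scatter among these libraries, and intervals of the other fits are not given here.

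HSP90B1, also called GRP94, is the ER's HSP90 and folds integrins and Toll-like receptors among others. It stood at 1354, 1415 and 1479 CPM in DEGS1 KO and at 1055, 1377 and 1063 CPM in WT. WT replicate 2 reached into the DEGS1 KO range, and the other WT libraries lay well below it. On the log2 scale the difference was 0.28 (SE 0.16, edgeR adjusted p = 0.407), and without WT replicate 2 it was 0.42 (adjusted p = 0.00772). Per kilobase of transcript HSP90B1 averaged 467 CPM in DEGS1 KO and 384 CPM in WT, the highest value in DEGS1 KO among the members, and HSPA5 averaged 69.1 CPM and 81.5 CPM. HSP90B1 and HSPA5, which both carry the ER stress response element printed above, had differences of opposite sign, neither of them called over all libraries.

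MANF, a secreted protein that binds BiP and steadies its ADP-bound form, followed HSP90B1 in its pattern. Its level was 75.2, 73.5 and 88.5 CPM in DEGS1 KO and 59.5, 81.4 and 54.6 CPM in WT, where replicate 2 alone overlapped DEGS1 KO. MANF had a log2 difference of 0.28 (SE 0.15, edgeR adjusted p = 0.391) and 0.48 (adjusted p = 0.00711) without WT replicate 2. DNAJB9, the J-domain cofactor that brings BiP to ERN1 to hold it inactive, stood at 21.1, 26.7 and 21.98 CPM in DEGS1 KO and at 17.5, 23.4 and 17.03 CPM in WT. DNAJB9 had a log2 difference of 0.27 (SE 0.16, edgeR adjusted p = 0.430), and 0.44 (adjusted p = 0.0348) without WT replicate 2. Its exons overlap THAP5 and PNPLA8 on the other strand, which averaged 68.5 and 53.5 CPM. DNAJB11, another J-domain cofactor of BiP, had 108, 112 and 106 CPM in DEGS1 KO, between WT replicates 1 and 3 at 91.3 and 91.7 CPM and WT replicate 2 at 122 CPM. DNAJB11 had a log2 difference of 0.09 (SE 0.13) over all libraries and 0.25 without that library, with edgeR adjusted p-values of 0.768 and 0.0491.

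DNAJC3, also called p58IPK, is a J-domain cofactor of BiP and had the smallest p among the 36. It stood at 63.4, 76.1 and 61.6 CPM in DEGS1 KO, against 89.5, 100.3 and 82.0 CPM in WT. Each DEGS1 KO library lay below each WT library. The log2 difference was -0.44 (SE 0.12, edgeR adjusted p = 0.0739), and the 95% interval of the fold was 0.615 to 0.890. In 7 of the 19 other ways of fitting it passed the threshold, for instance at an edgeR adjusted p of 0.0303 without WT replicate 2 and 0.0145 with library size as the only scaling. DNAJC3 lies on chromosome 13, where 270 of the 293 tested genes had a negative difference (92.2%) and the median was -0.34. With the median of each chromosome removed, the log2 difference of DNAJC3 was -0.09 (edgeR adjusted p = 0.738).

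The other BiP partners had smaller differences, none of them called. HYOU1, the large HSP70 relative that exchanges BiP's nucleotide and carries 2 copies of element II, had 230, 221 and 207 CPM in DEGS1 KO and 197, 241 and 198 CPM in WT. Its log2 difference was 0.05 (SE 0.13, edgeR adjusted p = 0.882), or 0.16 without WT replicate 2, uncalled both ways. SIL1, the other nucleotide exchange factor, had a difference of 0.07 (SE 0.13), and its exons overlap those of MATR3 on the other strand, which averaged 973 CPM. DNAJC10, a J-domain reductase that also breaks wrong disulfides, had 231, 244 and 241 CPM in DEGS1 KO and 237, 228 and 242 CPM in WT. Its fold lay between 0.853 and 1.20 at 95%. SDF2L1, a partner of DNAJB11, and CRELD2, an ER stress-inducible protein, had log2 differences of 0.18 (SE 0.14) and 0.07 (SE 0.12).

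The lectin chaperones CALR and CANX, or calreticulin and calnexin, hold newly glycosylated proteins in the ER until they are folded. CALR stood at 748, 723 and 719 CPM in DEGS1 KO and at 532, 749 and 540 CPM in WT. The DEGS1 KO libraries lay close together, and WT replicate 2 matched the highest of them. CALR had a log2 difference of 0.27 (SE 0.16, edgeR adjusted p = 0.446), and without WT replicate 2 it was 0.45 (adjusted p = 0.00567). CANX, the membrane-bound lectin, stood at 1613, 1809 and 1648 CPM in DEGS1 KO and at 1374, 1798 and 1328 CPM in WT. For CANX the log2 difference was 0.17 (SE 0.16, edgeR adjusted p = 0.643), and 0.33 (adjusted p = 0.0273) without WT replicate 2. Per kilobase of transcript CALR averaged 384 CPM in DEGS1 KO and 319 CPM in WT, and CANX 397 CPM and 352 CPM.

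All 5 disulfide enzymes had a positive difference, with a median log2 of 0.20, and none was called. PDIA3, the isomerase that works with calnexin and calreticulin, had the largest of all 36. It stood at 405, 409 and 466 CPM in DEGS1 KO and at 293, 408 and 290.0 CPM in WT. WT replicate 2 overlapped the lower DEGS1 KO libraries, and the other WT libraries lay far below. PDIA3 had a log2 difference of 0.37 (SE 0.16), with an unadjusted p of 0.0386 and an adjusted p of 0.268 in the edgeR fit. Without WT replicate 2 it was 0.55 (edgeR adjusted p = 0.00253), the largest among the members called higher there.

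PDIA6, which acts on ERN1 and on BiP clients, stood at 405, 420.2 and 434 CPM in DEGS1 KO and at 324, 427 and 309 CPM in WT. PDIA4, a larger isomerase, stood at 257, 245 and 248 CPM in DEGS1 KO and at 206, 250 and 196 CPM in WT. Again only WT replicate 2 overlapped DEGS1 KO. Their log2 differences were 0.25 (SE 0.15) and 0.20 (SE 0.13), with edgeR adjusted p-values of 0.445 and 0.481 over all libraries and 0.00915 and 0.0234 without WT replicate 2. P4HB, the classic protein disulfide isomerase, had 309, 280.0 and 276 CPM in DEGS1 KO and 260, 298 and 252 CPM in WT, a log2 difference of 0.09 (SE 0.13), or 0.18 without WT replicate 2. ERO1B, an oxidase that recharges the isomerases, was scarce at 7.64, 9.06 and 9.88 CPM in DEGS1 KO and 9.08, 7.99 and 9.37 CPM in WT. Its genotypes overlapped fully, with a log2 difference of 0.01 (SE 0.17).

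**Figure D3:**
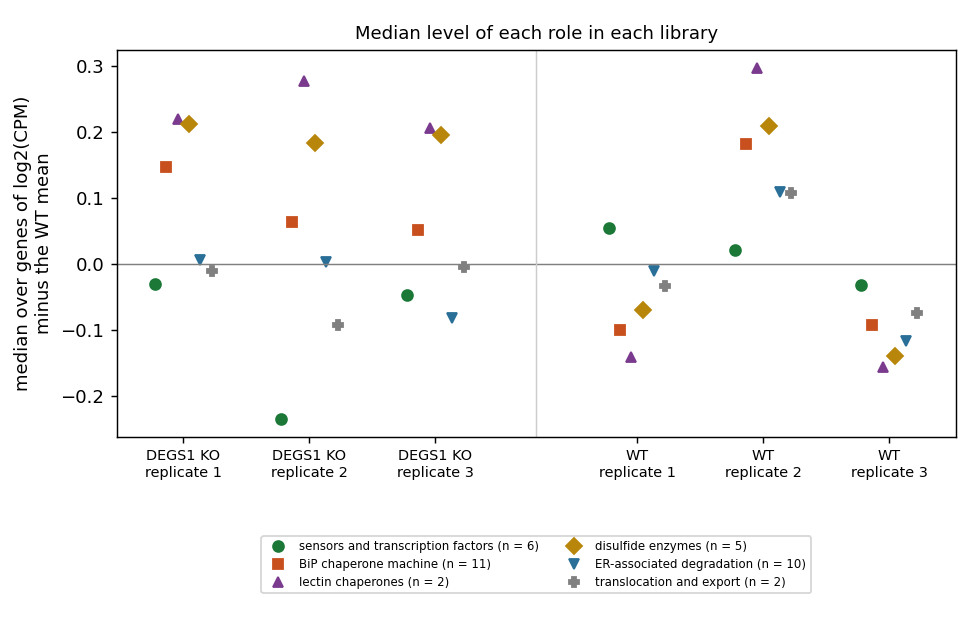
Median over the genes of each role of log2 CPM minus the WT mean of the gene, in each library. The lectin chaperones and disulfide enzymes lie at 0.18 to 0.28 in the 3 DEGS1 KO libraries and at 0.21 and 0.30 in WT replicate 2, and below zero in WT replicates 1 and 3.

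By library, the median of the disulfide enzymes relative to their WT mean was 0.21, 0.18 and 0.20 on the log2 scale in DEGS1 KO and -0.07, 0.21 and -0.14 in WT. For the lectin chaperones it was 0.22, 0.28 and 0.21 in DEGS1 KO and -0.14, 0.30 and -0.16 in WT. In both roles the medians of WT replicates 1 and 3 lay below those of the other 4 libraries. The BiP chaperone machine was at 0.15, 0.06 and 0.05 in DEGS1 KO and at -0.10, 0.18 and -0.09 in WT, so that WT replicate 2 was the highest library. The degradation genes were at 0.01, 0.00 and -0.08 in DEGS1 KO and -0.01, 0.11 and -0.12 in WT.

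ER-associated degradation had 10 members, 4 with a positive and 6 with a negative difference, and a median log2 of -0.09. SEL1L, the adaptor of the main degradation ligase, stood at 73.4, 91.1 and 76.1 CPM in DEGS1 KO and at 90.9, 108 and 82.8 CPM in WT. Its log2 difference was -0.23 (SE 0.13, edgeR adjusted p = 0.421), and on chromosome 14, where SEL1L lies, 83.2% of tested genes were negative with a median of -0.18. With chromosome medians removed it was -0.03, and without WT replicate 2 it was -0.11. SYVN1, also called HRD1, is the ligase that SEL1L serves and had 15.6, 12.5 and 12.4 CPM in DEGS1 KO and 16.1, 10.8 and 18.3 CPM in WT. The genotypes overlapped, with a log2 difference of -0.16 (SE 0.19), or -0.35 without WT replicate 2, uncalled both ways. SYVN1 shares exons with FAU on the same strand, a gene of 237 CPM. HERPUD1, which organises the ligase and carries element II, had a log2 difference of -0.12 (SE 0.12), or 0.04 with the median of chromosome 16 removed.

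The EDEM proteins trim the mannose of misfolded glycoproteins and so commit them to degradation. EDEM2 stood at 27.1, 22.3 and 22.96 CPM in DEGS1 KO, just above its 21.3, 22.1 and 20.8 CPM in WT. The genotypes did not overlap, but the gap between DEGS1 KO replicate 2 and WT replicate 2 was small beside the spread, and the log2 difference was 0.17 (SE 0.12, edgeR adjusted p = 0.530). EDEM1 and EDEM3 had differences of -0.07 (SE 0.10) and -0.14 (SE 0.13), with overlapping genotypes, and -0.03 and -0.02 without WT replicate 2. OS9, a lectin that hands trimmed glycoproteins to SEL1L, had 83.6, 93.5 and 86.6 CPM in DEGS1 KO and 75.8, 100.3 and 71.5 CPM in WT, another gene in which DEGS1 KO lay above WT replicates 1 and 3 and only WT replicate 2 was higher. OS9 had a log2 difference of 0.09 (SE 0.13), or 0.26 without that library, with edgeR adjusted p-values of 0.779 and 0.0532.

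The derlins form part of the channel through which proteins leave the ER. DERL3 was the scarcest member, at 2.05, 1.64 and 1.75 CPM in DEGS1 KO and 3.11, 2.23 and 3.05 CPM in WT, from 40 to 79 counts per library. DEGS1 KO was below WT throughout, the log2 difference was -0.62 (SE 0.27, edgeR adjusted p = 0.273), and the 95% interval of the fold ran from 0.431 to 0.978. Without WT replicate 2 the difference was -0.76 (edgeR adjusted p = 0.0402). Its exons overlap SMARCB1 on the other strand, which averaged 52.3 CPM. DERL1 and DERL2, the broadly expressed derlins, had differences of 0.13 (SE 0.11) and 0.02 (SE 0.12), or 0.22 and 0.16 without WT replicate 2, none of them called. SEC61B, a subunit of the channel that brings proteins into the ER, and SEC24D, which selects cargo for export, had differences of -0.05 (SE 0.12) and -0.03 (SE 0.12). The same differences were 0.09 and -0.03 without WT replicate 2.

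The balance among the folding genes was then read within each library, as counts of each member over counts of HSPA5, a measure that needs no scaling between libraries. It was chosen after the values were seen, HSPA5 is the denominator of every ratio, and no test is given. In DEGS1 KO the ratio of HSP90B1 to HSPA5 was 5.45, 4.73 and 5.63, against 3.56, 3.82 and 3.55 in WT. WT replicate 2, which overlapped DEGS1 KO in HSP90B1 itself, stood with the other WT libraries in this ratio. PDIA3 over HSPA5 was 1.63, 1.37 and 1.77 in DEGS1 KO and 0.989, 1.13 and 0.968 in WT, and CALR over HSPA5 was 3.01, 2.42 and 2.74 in DEGS1 KO and 1.80, 2.08 and 1.80 in WT. Of 35 members, 21 had a ratio higher in every DEGS1 KO library than in any WT library, and DNAJC3 had a lower one. HSP90B1, PDIA3 and CALR are all among the 21, and the ratios of the remaining members overlapped. The same count over all tested genes was 33.9% above and 3.75% below.

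**Figure D4:**
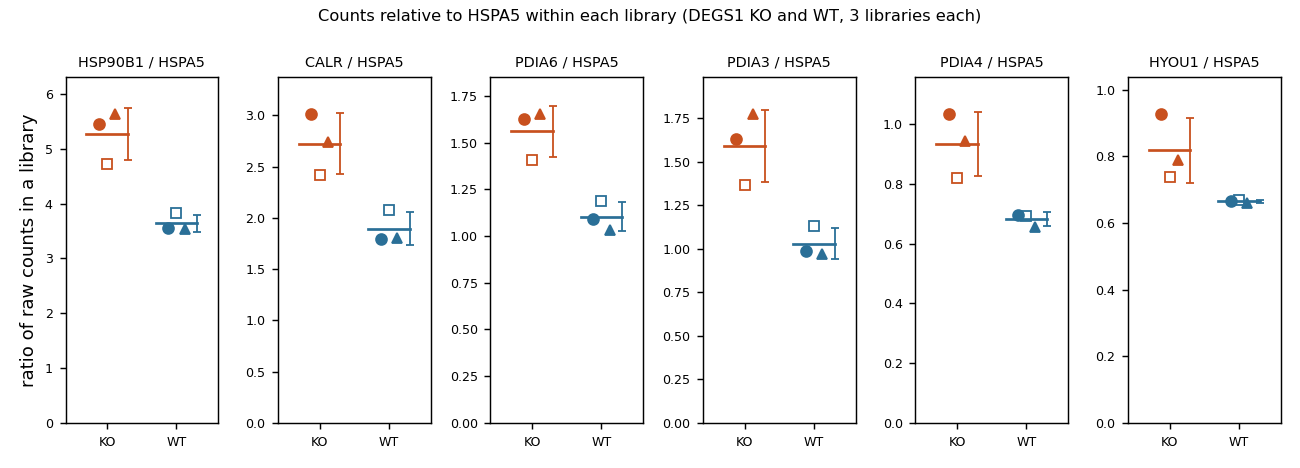
Counts of 6 members divided by counts of HSPA5 in the same library, on axes that start at 0, with 3 DEGS1 KO (KO) and 3 WT libraries as points (circle, open square and triangle for replicates 1, 2 and 3), the mean as a line and the SD as a bar. For HSP90B1 the DEGS1 KO points lie at 4.73 to 5.63 and the WT points at 3.55 to 3.82. All 6 are among the 21 of 35 members with a ratio higher in every DEGS1 KO library than in any WT library. Among all tested genes 33.9% had such a ratio. Members with overlapping ratios and DNAJC3, with a lower one, are not drawn.

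Chromosomes differed in their median, and some members with negative values lie on chromosomes with a negative median. Among genes that averaged more than 3 on the log2 CPM scale, the median difference was -0.34 on chromosome 13, -0.19 on chromosome 14, -0.16 on chromosome 16 and -0.10 on chromosome 22. On chromosomes 13, 14 and 16 the median of each DEGS1 KO library lay below that of each WT library. For chromosome 22 the genotypes overlapped, at 0.05, -0.19 and -0.01 in DEGS1 KO and 0.09, -0.05 and 0.12 in WT, relative to each gene's mean. DNAJC3, SEL1L and HERPUD1 lie on chromosomes 13, 14 and 16. On chromosome 22 the 4 members had differences of -0.62 for DERL3, -0.01 for XBP1, 0.07 for CRELD2 and 0.18 for SDF2L1. HSPA5 lies on chromosome 9, with a median of -0.06, and its difference was -0.18 (edgeR adjusted p = 0.576) with chromosome medians removed. DERL3 kept a difference of -0.52 by the same fit, with an adjusted p of 0.358. Whether copy number differs between the genotypes was not tested.

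**Figure D5:**
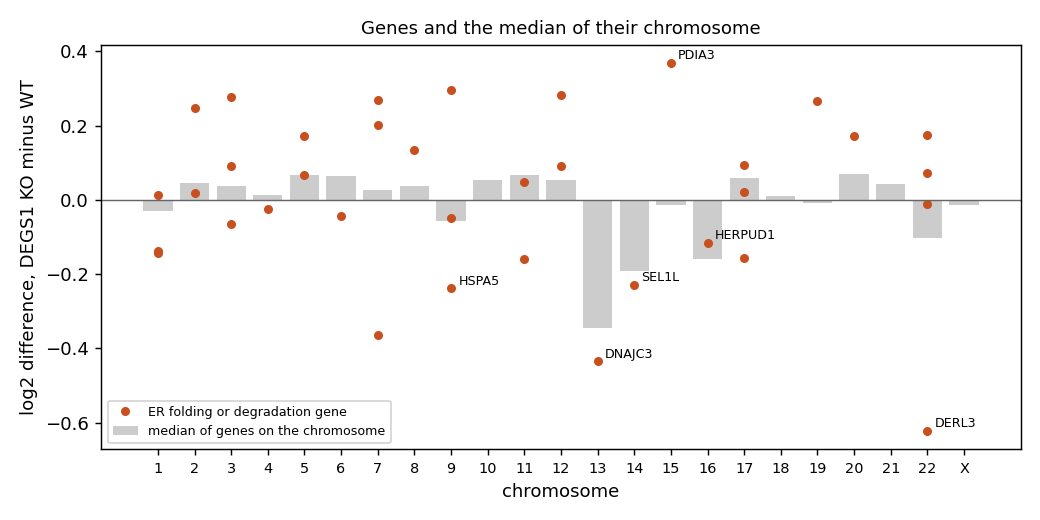
Log2 difference of each member, DEGS1 KO over WT, as points by chromosome, over bars for the median of genes with a mean log2 CPM above 3 on that chromosome. DNAJC3 lies near the median of chromosome 13, at -0.34, and PDIA3 lies far from that of chromosome 15, at -0.01.

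Across the 11 members with either promoter element, 8 differences were positive and 3 negative, with a median log2 of 0.07 and 0 called, where 4.46% of all tested genes were. Without WT replicate 2, 4 of the 11 were called, beside 36.1% of all members and 22.1% of all tested genes. XBP1 at -0.01, HSPA5 at -0.24 and HERPUD1 at -0.12 were the negative ones, and HSP90B1 at 0.28 was the highest.

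The rest of the ER folding system was read from 9 lists of 154 genes, of which 151 were tested. There 2 genes were higher and 1 was lower in DEGS1 KO, where 4.46% of all tested genes were called. Of the 151 differences 114 were positive, beside 47.3% over all tested genes, and the median log2 was 0.13, beside -0.02. DDIT3, or CHOP, the stress-induced transcription factor of the PERK arm, rose, with 28.2, 23.9 and 27.9 CPM in DEGS1 KO and 16.6, 18.9 and 14.5 CPM in WT. Its log2 difference was 0.68 (SE 0.14, edgeR adjusted p = 0.016), and the call was lost (adjusted p in brackets) without DEGS1 KO replicate 1 (0.0691), DEGS1 KO replicate 3 (0.0949) or WT replicate 1 (0.0644). It was the only call among the 12 genes of the PERK arm, 11 of which had a positive difference.

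THBS1, a secreted matrix protein listed with the ATF6 arm, also rose, with 50.9, 40.0 and 35.5 CPM in DEGS1 KO and 23.3, 29.3 and 17.1 CPM in WT. The log2 difference was 0.85 (SE 0.19, edgeR adjusted p = 0.0305), and it was no longer called without DEGS1 KO replicate 1 (0.099), DEGS1 KO replicate 2 (0.0772), WT replicate 1 (0.115) or replicate 2 of both genotypes (0.0539). FOXRED2, an ER flavoprotein of the degradation pathway, fell, with 27.8, 33.2 and 28.8 CPM in DEGS1 KO and 46.8, 39.9 and 49.0 CPM in WT. Its log2 difference was -0.60 (SE 0.12, edgeR adjusted p = 0.0151). The gene lies on chromosome 22, where the library medians of the genotypes overlapped. Its call was lost with chromosome medians removed (0.0814) and without DEGS1 KO replicate 1 (0.0929), DEGS1 KO replicate 3 (0.106) or WT replicate 1 (0.0739).

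In the edgeR fit of all libraries no gene of the other lists was called. The smallest p belonged to QSOX2 among the disulfide enzymes (0.30), UGGT2 in glycan processing (-0.44) and TRAM1 in the translocon (0.30), as log2 differences. In the remaining lists it belonged to TMED9 in export (0.23), SERPINH1 among the chaperones (0.35) and FAM134A among ER-phagy receptors (0.34). Each of these genes was called without WT replicate 2. The edgeR adjusted p-values there were 0.0409, 0.00111, 0.00426, 0.00583, 0.00987 and 0.00908, in the order named. Without WT replicate 2 the 151 genes gave 47 calls higher and 4 lower in DEGS1 KO, where 10.6% and 11.5% of all tested genes were called. Abundance was not matched in this comparison either. UGGT2, the glucosyltransferase relative that sends unfolded glycoproteins back to calnexin, had 55.9, 59.1 and 60.3 CPM in DEGS1 KO and 85.6, 68.2 and 84.0 CPM in WT, with no overlap. It lies on chromosome 13 with DNAJC3, and its edgeR adjusted p was 0.0544, or 0.752 at a log2 difference of -0.10 with chromosome medians removed. Over all libraries UGGT2 was called by the DESeq2 Wald test (adjusted p = 0.0378). In edgeR it was also called without a filter (adjusted p = 0.0464), with the replicate block (0.0336) and with the length and GC trend removed (0.0493).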

How the data were processed

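RNA of 3 DEGS1 KO and 3 WT libraries was made into stranded total RNA libraries from 1 ug of RNA and read as 75 nt single reads, per the labels. The authors deposited raw whole-number counts per gene symbol. The submitters' processing notes name bcl2fastq 2.20 and hg19. The aligner, the counter and its strand setting were not given in the sources used here, and 20 of the 36 members share exonic bases with another gene.

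Libraries were grouped by genotype from the labels. Scaling used the trimmed mean of M values (TMM). Genes passing edgeR's filterByExpr were tested with the quasi-likelihood F test (edgeR 4.0.16, R 4.3.3) on genotype alone, with Benjamini-Hochberg adjustment over all 16954 genes and a threshold of 0.05. The coefficient of variation was 16.4%. SE is the absolute log2 difference over the square root of F. The pipeline was tested on simulated counts, drawn separately for each gene, with 200 genes changed. It recovered 34.3% of genes changed 1.5-fold, 76.1% of those changed 2-fold and 98.5% of those changed 4-fold, with 6 false calls. No simulated library was made to stand apart as WT replicate 2 does, so these shares need not hold for the data here.

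The text names DEGS1, all 36 members and, in each further list, its called genes or the one with the smallest p. The members and lists were chosen with earlier results of these data known. Symbols were matched to a RefSeq gene table of GRCh38.p14 (27325 placed, 77.5%). Lengths, GC content and shared exons came from GENCODE release 29, whose build differs from that of the counts.

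Alternatives were DESeq2 1.42.0 (size factors and Wald test), limma 3.58.1 voom, other scalings and filters, length and GC trend or chromosome medians removed, the replicate number as a block, a threshold of 0.01, and each library left out.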

Additional observations from a re-analysis of the deposited data

How the results depend on the processing

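Among 684 values of the members under 19 alternatives, 601 kept their side of the threshold and their sign, 44 from 16 members became called, and 39 uncalled values changed sign, at differences of at most 0.16 in size in the fit with all libraries. DNAJC3 was the 1 member called with upper-quartile scaling, with library size only, with the replicate block and with the length and GC trend removed, in place of 0. Left-out libraries gave 0 to 15 members, 380 to 5497 genes in place of 756, and 0 to 75 further pathway genes in place of 3. The high ends came from leaving out replicate 2 of both genotypes. With the length and GC trend removed and WT replicate 2 left out, 12 members, 3802 genes and 46 further genes were called. A threshold of 0.01 called 375 genes and 0 further genes. The cause of these shifts was not tested. DEGS1 was called in all 19, at log2 differences of -3.72 to -3.32.

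Same-numbered DEGS1 KO and WT columns share a suffix in the count table whose meaning is not stated in the labels. Their deviations correlated at 0.257, 0.408 and -0.23. Differently numbered DEGS1 KO and WT libraries correlated at -0.558 to 0.588, a range that holds all 3 of these values. A pairing was thus not established, and the replicate block called 1082 genes. The median member difference lay between -0.01 and 0.15. With 3 libraries a genotype, a median interval of 0.28 to either side on the log2 scale limits what could be called. DERL3 was the 1 member under 5 CPM in every library.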
